A study of Mus musculus with 18 samples.

Results

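Levels of 9 transcripts of the insulin-like growth factor (IGF) system were measured in MEFs. These are fibroblasts that can be cultured from mouse embryos and that lay down connective tissue. The 9 genes were the binding proteins Igfbp2, Igfbp3, Igfbp4, Igfbp5, Igfbp6 and Igfbp7, the ligand Igf1 and the receptors Igf1r and Igf2r, taken from the 55487 genes of the count table by the symbols of their Ensembl identifiers. The fibroblasts were kept for 24 h in full growth medium without added uracil (control, 0 µM) or with 10 or 30 µM uracil, with 6 libraries per dose, numbered 1 to 6. Uracil is the base released from uridine by uridine phosphorylase-1, and the study asked how fibroblasts respond to it. The sources used here give no strain, embryo age or genotype for the MEFs. The study's methods call the replicates of each condition biological, and the sources used here do not say what a number shared across doses stands for. The 9 genes were selected on the difference in Igfbp3 between replicate numbers in these same libraries. Differences between numbers are therefore described without a test, and only the doses were tested.

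IGF1 and IGF2 are small growth factors that act through the receptor tyrosine kinase IGF1R and, downstream, through insulin receptor substrates and the PI3K-AKT pathway. IGF2R has no kinase activity and carries IGF2 and mannose-6-phosphate-tagged lysosomal enzymes to lysosomes. The secreted binding proteins hold IGFs in the extracellular space and control their access to the receptor, and proteases such as PAPP-A release the bound ligand. Fibroblasts are a well-known source of several of these proteins.

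Gene counts were 11.6 to 20.8 M per library (1 M is 1000000 counts), except for 3.96 M in control replicate 1 and 7.39 M in 30 µM replicate 6. The share of read pairs unaligned was 54.2% in control replicate 1 and 37.9% in 30 µM replicate 6. It was 5.24% in 10 µM replicate 6, against 1.72% to 3.59% in the other 15. The study's methods set aside a vehicle sample and a sample of the higher dose because of human RNA, and the labels do not say which. Control replicate 1 and 30 µM replicate 6 had the largest unaligned shares of the 18 libraries. Whether they were the samples set aside was not tested. All results are therefore given with the 18 libraries and, where they rest on the 3 with over 5% unaligned, without these 3. A set that leaves out only control replicate 1 and 30 µM replicate 6 was not fitted. The fibroblast label was checked against 9 fibroblast markers, all of which averaged over 1 CPM (counts per 1000000 of the scaled library size), with Col1a2 the highest at 8719 to 13960 CPM. Of 9 mesothelial or epithelial markers, 7 averaged over 1 CPM, led by Upk1b at 35.01 to 139 CPM. The summed levels of the other marker lists were low in all libraries, at 7.34 to 12.03 CPM for 5 endothelial markers (highest Kdr), 1.08 to 3.45 CPM for 6 macrophage markers (highest Csf1r), 0.309 to 1.67 CPM for 5 skeletal muscle markers (highest Des) and 0.421 to 1.62 CPM for 4 neural crest or glial markers. Myod1 was the only marker without a count in any library.

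The promoters of Igfbp3, Igfbp4 and Igfbp7 are shown because replicate number took up most of the variance of these 3 genes (99.4%, 94.5% and 91.7%), each with another order of the numbers. The sequences are the 150 bases before the RefSeq start on GRCm38.p6, in lower case, and capitals mark matches on either strand to TATAAA or to TATATA, forms of the TATA box, or to GGGCGG.
Igfbp3, chr11:7213924-7214073, minus strand: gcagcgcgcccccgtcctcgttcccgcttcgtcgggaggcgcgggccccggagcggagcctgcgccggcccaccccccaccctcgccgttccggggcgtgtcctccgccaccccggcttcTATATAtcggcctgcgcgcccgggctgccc
Igfbp4, chr11:99041094-99041243, plus strand: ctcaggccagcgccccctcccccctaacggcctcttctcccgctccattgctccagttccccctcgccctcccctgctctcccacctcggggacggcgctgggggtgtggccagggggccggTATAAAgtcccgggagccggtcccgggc
Igfbp7, chr5:77408046-77408195, minus strand: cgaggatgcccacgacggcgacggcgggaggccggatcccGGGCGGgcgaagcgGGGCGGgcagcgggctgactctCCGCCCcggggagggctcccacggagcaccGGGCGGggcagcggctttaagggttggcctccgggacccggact
Each of the 9 genes had a RefSeq promoter of 300 bases (250 before and 50 after the start), and Igfbp2 had 2. TATATA was found in the Igfbp3 promoter, 30 bases before the start, and in 5.67% of all 32851 promoters of this length. TATAAA was found in the promoter of Igfbp4, 28 bases before the start, in that of Igfbp6 on the other strand, and in 13.6% of all promoters. GGGCGG, the core of a GC box, was found in the promoters of Igfbp2, Igfbp7, Igf1r and Igf2r and in 35.7% of all promoters. The Igfbp7 promoter held 4 copies of GGGCGG, counting both strands, and neither TATA motif. The 3 promoters thus had different motifs and a similar GC content, at 71.7% for Igfbp3, 71.3% for Igfbp4 and 73.3% for Igfbp7, against a median of 52.7% over all promoters. These matches describe the letters in the window only.

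To compare genes with each other, CPM was divided by the length of each gene's exons in kilobases (kb). Igf2r had the highest level of the 9 genes in every library, at 71.8 ± 4.90 CPM per kb (SD, n = 18). Igfbp4, Igfbp3 and Igfbp2 followed at 31.1 ± 10.4, 28.9 ± 13.01 and 28.3 ± 5.50 CPM per kb. Their order was not settled, since Igfbp4 was above Igfbp3 in 9 of 18 libraries and Igfbp3 above Igfbp2 in 7 of 18. Igfbp6 had 22.2 ± 4.69 and Igfbp7 21.4 ± 5.38 CPM per kb, and Igfbp6 was the higher in 8 of 18 libraries. Igf1r had 11.97 ± 4.58 CPM per kb, and 10.0 ± 0.736 in the 15 libraries. Igf1 had 1.55 ± 0.315 and Igfbp5 0.164 ± 0.0909 CPM per kb, and these positions held in all 18 libraries. The fibroblasts thus contained more transcript per kb of Igf2r than of Igf1r, and far more of 5 binding proteins than of the ligand Igf1. The order was the same without the 3 libraries. With the length of the longest transcript in place of all exons, Igfbp2 moved to second place, at 39.3 CPM per kb.

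**Figure D1:**
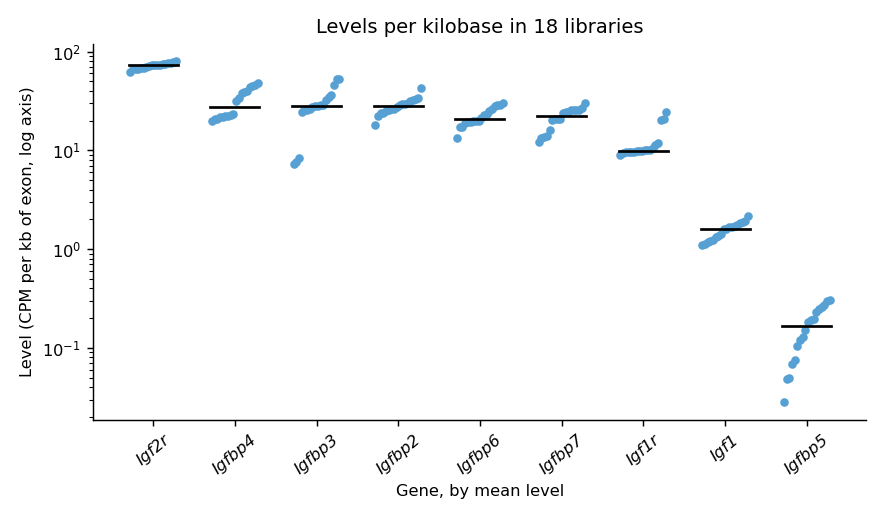
Level of each gene in CPM per kb of exon (vertical log axis), with genes along the horizontal axis in order of their mean; each point is 1 of the 18 libraries, sorted by value, and the black line is the median. Igf2r lies highest, at 61.4 to 80.2 CPM per kb, and Igfbp5 lowest, at 0.0280 to 0.307, while 3 points of Igfbp3 lie far below its other 15.

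Igfbp3 encodes the main carrier of IGFs in blood, and lies on chromosome 11 (GRCm39, 7156086 to 7164179, minus strand), 3539 bases from Igfbp1. Over the 18 libraries its levels were the widest apart between replicate numbers, which is what the 9 genes were selected on. In controls the lowest, median and highest levels were 25.8, 95.9 and 162 CPM, at 10 µM 29.5, 99.9 and 187 CPM, and at 30 µM 27.1, 102 and 187 CPM. The doses overlapped almost completely, and in each dose replicate 6 was the lowest and replicate 1 the highest. By number, the means were 178.6 CPM in number 1, 122.8 in number 2, 90.4 in number 3, 100.7 in number 4, 97.8 in number 5 and 27.5 in number 6 (n = 3 each). Within a number the 3 libraries stayed close, the highest being at most 1.15 times the lowest. The ratio of number 1 to number 6 was 6.29 in controls, 6.31 at 10 µM and 6.90 at 30 µM, and 6.50 over the means. Only 1 library of number 6 is among the 15 with few unaligned pairs, and with those 15 the ratio was 7.17. Replicate number took up 99.4% of the variance of log2 CPM of Igfbp3, against a median of 40.8% over 13865 genes, and dose took up 0.408%, against 7.91%. In the 15 libraries, where number 6 is present in controls only, the share of dose was 23.4%.

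Igfbp4 encodes a binding protein that PAPP-A cleaves, and lies on chromosome 11 (98932064 to 98945218, plus strand). Its lowest, median and highest levels were 88.1, 125 and 199.8 CPM in controls, 95.8, 118 and 193 CPM at 10 µM and 91.6, 138 and 212 CPM at 30 µM. Every dose contained both low and high libraries. Numbers 1, 2 and 3 had means of 96.4, 93.9 and 97.7 CPM, and numbers 4, 5 and 6 of 172, 201 and 163 CPM. In the 15 libraries the values were 91.6 to 103 CPM in numbers 1 to 3 and 149 to 212 CPM in numbers 4 to 6, without overlap. Igfbp4 thus did not follow Igfbp3, which was similar in numbers 3, 4 and 5.

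Igfbp7 encodes a secreted protein that binds IGFs weakly, and lies on chromosome 5 (77493130 to 77555931, minus strand), where it overlaps Polr2b on the other strand. Its lowest, median and highest levels were 73.4, 121 and 164 CPM in controls, 66.9, 123 and 146 CPM at 10 µM and 74.98, 123 and 141 CPM at 30 µM. By number, the means were 146, 135 and 142 CPM in numbers 1 to 3 and 112, 71.8 and 92.3 CPM in numbers 4 to 6. This was the reverse of Igfbp4: in the 15 libraries Igfbp7 had 130 to 146 CPM in numbers 1 to 3 and 66.9 to 113 CPM in numbers 4 to 6.

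Igfbp5, a binding protein that also attaches to extracellular matrix, was barely expressed, with 2 to 37 counts per library. Its level was 1.09 to 1.85 CPM in numbers 1 to 3 and 0.168 to 0.916 CPM in numbers 4 to 6 of the 15 libraries. The means were 1.61 CPM in number 1 and 0.383 CPM in number 5, a ratio of 4.21, which was 9.50 in the 15 libraries, where the lowest number was the single library of number 6 with 2 counts (exact Poisson 95% interval 0.242 to 7.22, counting error only). Igfbp5 lies tail to tail with Igfbp2 on chromosome 1 (72897091 to 72914043, minus strand), 5456 bases away. Igfbp2 (72863606 to 72891634, plus strand) was at a higher level, with 38.0, 51.6 and 69.6 CPM as the lowest, median and highest in controls, 49.2, 57.5 and 70.3 CPM at 10 µM and 54.0, 61.4 and 89.1 CPM at 30 µM. Neighbourhood did not come with a shared order of the numbers, as Igfbp2 was highest in number 5, at 76.3 CPM, where Igfbp5 was lowest. Igfbp6, which prefers IGF2, lies on chromosome 15 (102052697 to 102057953, plus strand) and had 18.6 to 39.6 CPM in controls, 24.0 to 39.6 at 10 µM and 23.8 to 41.3 at 30 µM. Its means were highest in number 4, at 39.4 CPM, and lowest in number 6, at 25.1 CPM. The 3 libraries with many unaligned pairs had the lowest Igfbp6 of all, at 18.6 to 24.0 CPM against 25.9 to 41.3 CPM in the other 15. Among the 13865 genes, 6.30% had these 3 libraries below all others.

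**Figure D2:**
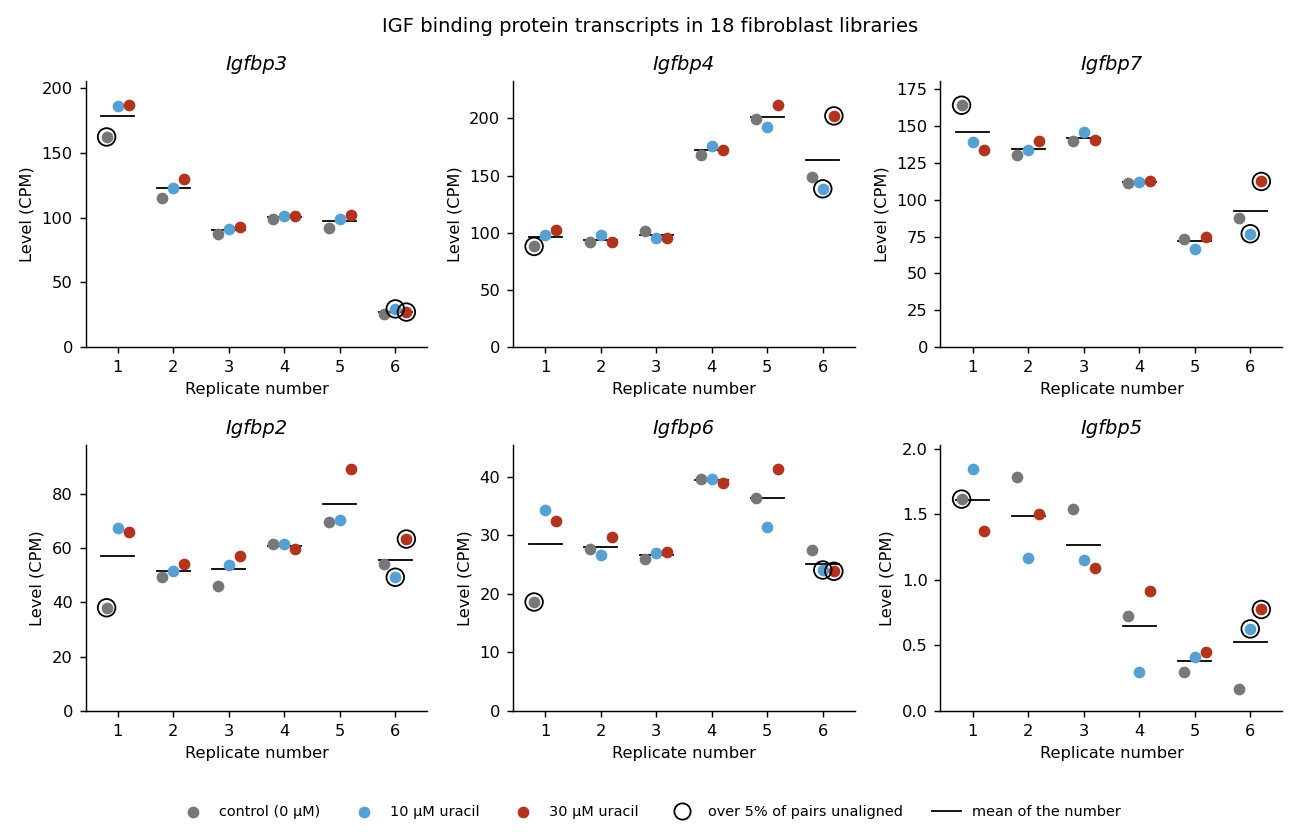
Level in CPM (vertical axes, from 0) of the 6 binding protein transcripts against replicate number (horizontal axes); points are single libraries coloured by dose, circles mark the 3 libraries with over 5% of read pairs unaligned, and black lines are the means of the 3 libraries of a number. Igfbp3 has 178.6 CPM in number 1 and 27.5 CPM in number 6, Igfbp4 is high in numbers 4 to 6, Igfbp7 and Igfbp5 are low there, and the colours of the doses lie mixed.

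Taking the 6 binding proteins as a set, their summed level per kb was 107 ± 13.8 CPM per kb in number 6 and 118 to 149 CPM per kb on average in the other numbers. Its make-up shifted more than its sum. Igfbp3 was 34.2 ± 1.34% of the sum in number 1 and 7.33 ± 1.27% in number 6, and Igfbp4 was 14.9 ± 0.750% and 34.4 ± 2.71% (SD, n = 3 libraries each). The leading transcript was Igfbp3 in numbers 1 and 2 and Igfbp4 in numbers 4, 5 and 6. In number 3 the shares of Igfbp7, Igfbp3 and Igfbp2 were 22.1%, 21.5% and 21.2%. Igfbp2 and Igfbp6 kept steadier shares, of 18.4% to 25.1% and 13.8% to 19.6%.

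**Figure D3:**
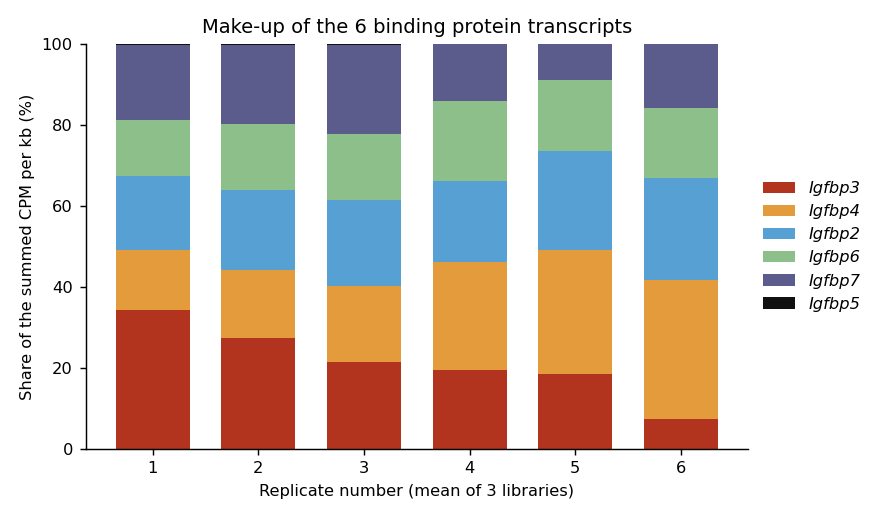
Share (%) of each binding protein in the summed CPM per kb of the 6 (vertical axis), as the mean of the 3 libraries of each replicate number (horizontal axis). The share of Igfbp3 is 34.2% in number 1 and 7.33% in number 6, and that of Igfbp4 is 14.9% and 34.4%; Igfbp5, at 0.197% or less, is hardly visible.

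Igf1, the ligand, lies on chromosome 10 (87693642 to 87772904, plus strand) and overlaps the antisense gene Igf1os. It had 13.7 to 19.9 CPM in controls (median 17.1), 11.2 to 22.3 CPM at 10 µM (median 15.02) and 11.5 to 18.9 CPM at 30 µM (median 14.4). In the 15 libraries it was at 11.2 to 14.7 CPM in numbers 1 to 3 and 16.5 to 19.9 CPM in numbers 4 to 6. Igf1, Igfbp4, Igfbp5 and Igfbp7 were thus the 4 of 9 genes whose levels did not overlap between numbers 1 to 3 and 4 to 6, as was the case for 7.49% of the 13865 genes. This division of the numbers was made after the values were seen and has no test.

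Other measures moved with the same division. In the 15 libraries, gene counts were 13.7 to 20.8 M in numbers 1 to 3 and 11.6 to 14.2 M in numbers 4 to 6, and pairs under the alignment quality limit were 4.79% to 7.17% and 7.76% to 13.1%. The summed level of the 9 mesothelial or epithelial markers was 119 to 179 CPM in numbers 1 to 3 and 280 to 401 CPM in numbers 4 to 6 of all 18 libraries, with Krt18 and Epcam under 1 CPM on average. One by one in the 15 libraries, Msln, Upk3b, Upk1b, Wt1 and Krt8 did not overlap and were higher in numbers 4 to 6. Krt18, Krt19, Epcam and Cdh1 overlapped. The summed level of the 9 fibroblast markers overlapped between numbers 1 to 3 and 4 to 6, as did 5 of the markers one by one, Col1a1, Col1a2 and Col3a1 among them. The other 4 did not overlap in the 15 libraries and were lower in numbers 4 to 6. Among all 13865 genes, 7.49% did not overlap between these numbers. Pdgfra had 36.6 to 44.4 CPM in numbers 1 to 3 and 24.0 to 32.7 CPM in numbers 4 to 6, and Pdgfrb, the second receptor for platelet-derived growth factor, 219 to 244 and 130 to 180 CPM. Vim, the intermediate filament vimentin, had 5601 to 6041 and 4895 to 5340 CPM, and Lum, the matrix proteoglycan lumican, 3.65 to 10.2 and 0.252 to 2.89 CPM. The part of these measures in the levels of Igf1 and the binding proteins was not tested, and in bulk libraries fewer cells of a type and less RNA per cell cannot be told apart.

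Igf1r, the receptor kinase for IGF1 and IGF2, lies on chromosome 7 (67601518 to 67883416, plus strand). Its lowest, median and highest levels were 178, 215 and 408 CPM in controls, 185, 193 and 399 CPM at 10 µM and 191, 196 and 479 CPM at 30 µM. The highest library of each dose was the one with many unaligned pairs, that is control replicate 1, 10 µM replicate 6 and 30 µM replicate 6. The other 15 libraries had 178 to 237 CPM, and these 3 were 2.06, 2.01 and 2.42 times their mean of 198 CPM. Among the 13865 genes, 11.7% had these 3 libraries above all others. The insulin receptor Insr had the same pattern, at 64.2 to 75.8 CPM in the 3 libraries and 39.4 to 46.0 CPM in the other 15. Without the 3 libraries, replicate number set Igf1r apart by a ratio of only 1.201 between the highest and lowest number, compared with 1.97 with them. The part of the unaligned pairs in the level of Igf1r was not tested.

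Igf2r, which is imprinted and expressed mainly from the maternal allele in mouse, lies on chromosome 17 (12901293 to 12988614, minus strand) and overlaps the antisense RNA gene Airn. It had 576 to 707 CPM in controls (median 656), 617 to 723 CPM at 10 µM (median 686) and 643 to 751 CPM at 30 µM (median 689). It was the steadiest of the 9 genes, with a ratio of 1.14 between the highest and the lowest number, below the median of 1.31 over all genes tested. The corresponding ratios were 1.48 for Igfbp2, 1.57 for Igfbp6, 2.03 for Igfbp7, 2.15 for Igfbp4 and 1.47 for Igf1.

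**Figure D4:**
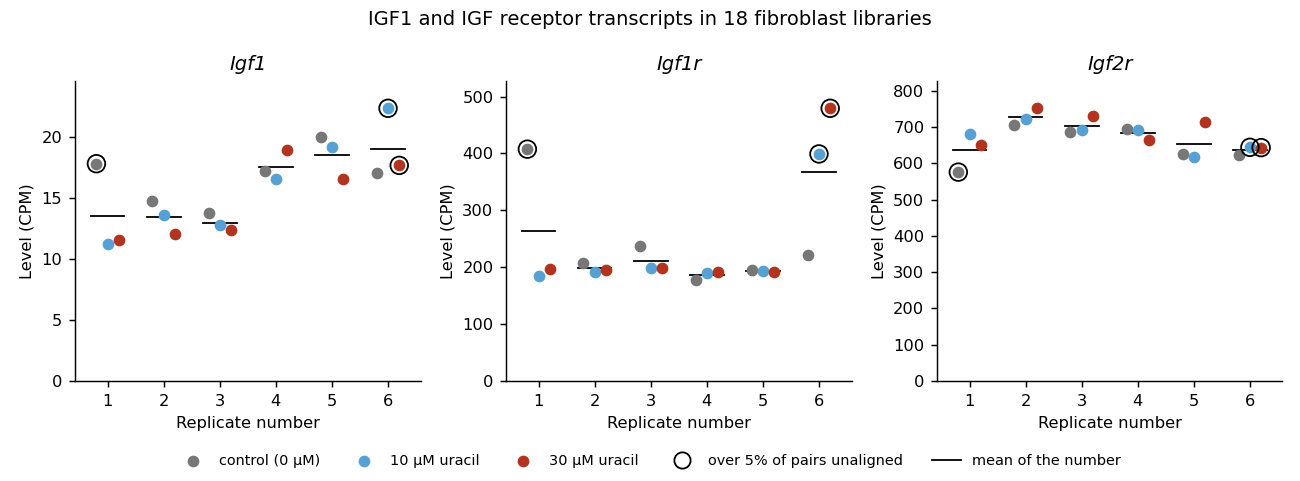
Level in CPM (vertical axes, from 0) of Igf1, Igf1r and Igf2r against replicate number (horizontal axes); points are single libraries coloured by dose, circles mark the 3 libraries with over 5% of read pairs unaligned, and black lines are the means of a number. The 3 circled libraries have 399 to 479 CPM of Igf1r against 178 to 237 CPM in the others, and Igf2r is near level.

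Whether uracil altered these transcripts was tested with edgeR's quasi-likelihood test over all 13865 genes. None of the 9 genes passed at an adjusted p under 0.05 in any contrast (0 of 9 in each, against 0% of all genes), and DESeq2 and limma voom with quality weights gave 0 of 9 as well. At an unadjusted p under 0.05 the count was 0 of 9 for 10 µM against control (all genes 0.692%), 0 of 9 for 30 µM against control (4.29%), 0 of 9 for 30 µM against 10 µM (2.33%) and 0 of 9 for any difference among the doses (1.53%). These unadjusted counts depended on the fit. A block for replicate number, which pairs libraries of the same number, gave 1 of 9 at 10 µM (161 of 13865 genes). It gave 2 of 9 at 30 µM (937), 0 of 9 between the doses (588) and 2 of 9 for any difference (386). Without the 3 libraries and without the block, 1 of 9 was under 0.05 at 10 µM (656 of 13888 genes). Without the 3 libraries and with the block, it was 0 of 9 at 10 µM (517) and 2 of 9 at 30 µM (604). The same fit gave 0 of 9 between the doses (672) and 1 of 9 for any difference (535). The median log2 fold change of the 9 genes was 0.085 at 30 µM, with 8 higher and 1 lower than control, against 0.012 over all genes, of which 53.5% were higher. At 10 µM it was -0.0036, with 4 higher and 5 lower, against 0.0059 over all genes, of which 52.7% were higher. Between 30 and 10 µM the log2 fold changes of the 9 genes were -0.11 to 0.14. The contrasts with control share the same control libraries.

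The smallest p was that of Igfbp2 at 30 µM, with a log2 fold change of 0.28 ± 0.14 (SE, 95% interval -0.015 to 0.58, edgeR adjusted p = 0.931). At 10 µM its value was 0.14 ± 0.14 (-0.15 to 0.44). Leaving out 1 library at a time, the 30 µM value of Igfbp2 ranged from 0.16 to 0.38. Its level in 30 µM replicate 5 was 89.1 CPM, against 54.0 to 65.7 CPM in the others of that dose. For Igfbp3 the log2 fold change was 0.12 at 10 µM (-0.80 to 1.05) and 0.15 at 30 µM (-0.78 to 1.08). It became 0.51 ± 0.34 and 0.53 ± 0.34 in the 15 libraries. There, controls keep number 6, their lowest library, and lose number 1, their highest, while both uracil doses lose number 6, their lowest. The intervals of Igfbp3, Igfbp4 (at 30 µM 0.13, -0.46 to 0.71) and Igfbp5 (0.046, -0.97 to 1.06) were wide in this fit, whose only term is dose. The spread between replicate numbers therefore enters them. Igfbp6 (0.13, -0.22 to 0.48), Igfbp7 (0.021, -0.44 to 0.49) and Igf1 (-0.18, -0.53 to 0.18) had narrower intervals at 30 µM. Igf2r was measured most precisely, with 0.048 ± 0.065 at 10 µM (-0.087 to 0.18) and 0.085 ± 0.065 at 30 µM (-0.050 to 0.22). For Igf1r the log2 fold change was -0.088 at 10 µM (-0.66 to 0.49) and 0.0071 at 30 µM (-0.57 to 0.58). In the 15 libraries, where its controls had 178 to 237 CPM and both doses 185 to 199 CPM, it was -0.12 ± 0.057 at 10 µM and -0.10 ± 0.057 at 30 µM, with edgeR adjusted p of 0.998 and 0.944.

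**Figure D5:**
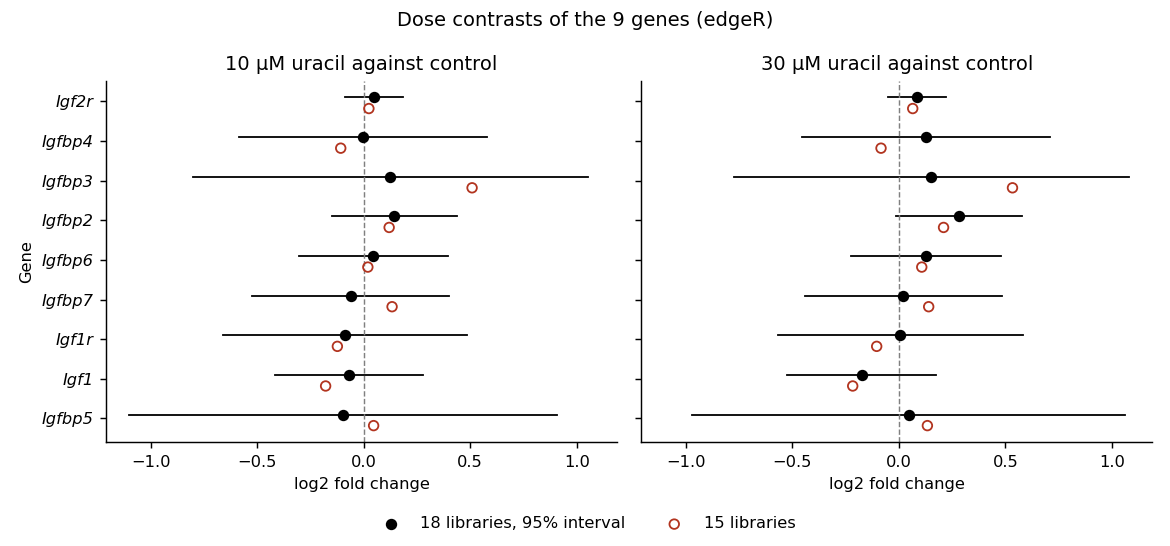
Log2 fold change (horizontal axes) of each gene (vertical axis) at 10 µM (left) and 30 µM uracil (right) against control; filled points with 95% intervals are from 18 libraries (n = 6 per dose) and open circles from the 15 libraries with few unaligned pairs. All intervals include 0, and the open circles of Igfbp3 lie to the right of its filled points, at 0.51 and 0.53.

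Other genes of the IGF axis were read from 3 lists, in which 35 of 43 genes had enough counts for the test. None passed in a dose contrast (0 of 35 by edgeR). Among ligands, Igf2, the fetal growth factor that binds both receptors, had 0 to 16 counts per library, or at most 2.17 CPM, and Ins2 had no count in any library, which allows up to 0.144 to 0.757 CPM (3 counts per library). Igfbp1, the neighbour of Igfbp3, had 1 count in each of 3 libraries and none in the other 15, and Igfals, the acid-labile subunit that joins IGFBP3 in blood, had at most 1. Igfbp3 was thus expressed beside a gene that was hardly detected. Insr had log2 fold changes of -0.015 at 10 µM and 0.0042 at 30 µM. Of 10 proteases, protease inhibitors and binding protein receptors, 9 were tested, and 0 of 9 had an unadjusted p under 0.05 in either contrast with control. Pappa, whose protein cleaves IGFBP4, had 120 to 131 CPM in numbers 1 to 3 and 57.3 to 82.6 CPM in numbers 4 to 6 of the 15 libraries. This order of Pappa was opposite to that of Igfbp4 and the same as that of Igfbp5 and Igfbp7. The log2 fold changes of Pappa with dose were -0.0091 and -0.054.

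Of 26 receptor adaptors and PI3K-AKT genes, 25 were tested, with a median log2 fold change of -0.021 at 10 µM and -0.034 at 30 µM. At 30 µM, Akt1 (0.20 ± 0.081) and the regulatory subunit gene Pik3r2 (0.19 ± 0.088) were the 2 of 25 higher than control at an unadjusted p under 0.05, both with an edgeR adjusted p of 0.931. Irs1, an adaptor that IGF1R phosphorylates, had 84.3 to 170 CPM over the 18 libraries and log2 fold changes of -0.11 at 10 µM and -0.12 at 30 µM. The related Irs2 had -0.063 and 0.038, with 56.8 to 76.1 CPM in the 3 libraries with many unaligned pairs and 30.9 to 46.6 CPM in the others.

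The genes with profiles most like each member were found by Pearson's r of log2 CPM over the 15 libraries, among genes of at least 5 CPM on average. Libraries of the same number share their number's level, so that these 15 points hold few independent levels, and r is given as a description only. Igfbp3 was most like Vegfd (r = 0.96), Penk (0.95), Epb41l4b (0.95), Clec11a (0.94) and Ak4 (0.93), with rank correlations (Spearman's rho) of 0.81, 0.89, 0.78, 0.86 and 0.46. The likeness of Ak4 in r was thus not matched by its ranks. The profiles most opposite to Igfbp3 were those of Adarb1 (r = -0.91) and Fryl (-0.90). Igfbp4 was most like Smpd3 and Krt14 (both 0.99), and Igfbp7 most like Slc16a3 and Fstl3 (both 0.97). Smoc1 and Tmem178 (both 0.94) were most like Igfbp5, Irf2bp1 (0.95) and Idh3b (0.92) most like Igfbp2, and Irx1 (0.95) and Fbxw5 (0.92) most like Igfbp6. Igf1 was most like Strbp and Met (both 0.96), Igf1r most like Tmcc3 (0.93) and Igf2r most like Clip2 (0.90) and Slc38a10 (0.88). With all 18 libraries, 4 of the 21 most-like genes remained among the most like, including Epb41l4b for Igfbp3, Krt14 for Igfbp4 and Met for Igf1.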

How the data were processed

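Stranded total RNA libraries were made from the MEFs. The values deposited by the authors are counts of read pairs for each Ensembl gene and library, whole and not normalised. Per the labels, HISAT2, SAMtools 1.2 and HTSeq were used. The labels name the build GRCh38, although the identifiers are those of mouse, and the strand setting of the counting is not given in the sources used here, so counts of genes that overlap others (Igfbp7, Igf1, Igf1r and Igf2r among them) are uncertain. The closing entries for unaligned, low-quality, ambiguous and multiply aligned pairs were kept out of library sizes. All 18 columns matched a sample, grouped by the dose and number in the titles.

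GENCODE M39 (GRCm39) gave symbols to 51731 of 55487 identifiers, and the positions printed here. The dose tests were run in edgeR 4.0.16 under R 4.3.3 (filterByExpr, TMM, robust quasi-likelihood, all 18 libraries, dose as the only term, two-sided, Benjamini-Hochberg adjustment over 13865 genes, threshold 0.05). Intervals are 95% intervals. CPM is TMM-scaled, and log2 CPM used a prior count of 2. The share of variance is that of a model with number or dose alone. Alternatives were DESeq2 1.42.0, limma 3.58.1 (voom), other size factors and filters, only the groups compared, a replicate block, each library left out, and the 3 libraries with over 5% unaligned pairs left out. On simulated counts for 30 µM against control with 200 changed genes, the test found 60.5% of those changed 1.5-fold (of 13774 genes), 87.5% of those changed 2-fold (13781) and 97.0% of those changed 3-fold (13789). The simulated counts held no shared level by replicate number, and the shares are averages over genes above 1 CPM. They do not apply to Igfbp3, Igfbp4, Igfbp5, Igfbp7 and Igf1r. The log2 fold changes of these genes at 30 µM had SEs of 0.44, 0.28, 0.49, 0.22 and 0.27.

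The 9 genes and the lists were chosen with earlier results of these data known. Genes named are the 9, the 5 most and 2 least like Igfbp3, the 2 most like each other member, listed genes past a threshold, the always-named Igf2, Igfbp1, Insr, Pappa, Irs1 and Irs2, and the highest and undetected markers. Akt1, Pik3r2, Ins2, Igfals, Krt18, Epcam, Pdgfra, Pdgfrb, Vim and Lum were named after their values were seen. So were Msln, Upk3b, Wt1, Krt8, Krt19 and Cdh1. Some results that these rules would name are not reported here.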

Additional observations from a re-analysis of the deposited data

Results flagged for a closer look

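In each dose group of 6 libraries, the gap between the highest or lowest library and its neighbour was set against the group's range (Dixon's test). For the 9 genes and 6 others of the IGF axis this gave 43 groups, of which chance flags about 1 in 20. It marked 11 values, 10 of them in the 3 libraries with over 5% of read pairs unaligned. Igf1r was far above the other libraries of its dose in control replicate 1 (408 CPM), 10 µM replicate 6 (399 CPM) and 30 µM replicate 6 (479 CPM). Insr was so in the same libraries, at 67.3, 64.2 and 75.8 CPM. Irs2 (63.3 and 76.1 CPM) and Igf2 (1.11 and 2.17 CPM) stood apart in 10 µM replicate 6 and 30 µM replicate 6. The only marked value outside these libraries was Igfbp2 in 30 µM replicate 5, at 89.1 CPM against 54.0 to 65.7 CPM in the others of its dose.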

How the results depend on the processing

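All counts of genes called in the 3 contrasts and among the doses stayed at 0 in 111 alternatives. Of 502 recomputed log2 fold changes of the 9 genes against control, 447 kept their direction, 55 changed sign and 0 passed the threshold in any; the cause was not tested. With at least 10 counts in every library, 8 of the 9 genes could be tested, Igfbp5 dropping out. At 10 µM, Igfbp4 became 0.0014 with library totals alone, 0.0036 with no filter and 0.011 with the replicate block. Limma voom gave Igfbp5 0.053 and Igfbp7 0.12 at 10 µM, and Igfbp4 -0.22 and Igf1r -0.11 at 30 µM. Without the 3 libraries the values were 0.046 and 0.13 for Igfbp5 and Igfbp7 at 10 µM, and -0.084 and -0.10 for Igfbp4 and Igf1r at 30 µM. At 30 µM Igf1r was -0.035 with library totals alone.

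The replicate block treats libraries of the same number as paired. It gave Igfbp5 -0.033 and Igf1r -0.069 at 30 µM, and, without the 3 libraries as well, Igfbp6 -0.029 and Igfbp7 0.0061 at 10 µM and Igfbp5 -0.26 and Igf1r -0.070 at 30 µM. With the block, Igfbp2 had a log2 fold change of 0.27 ± 0.098 at 30 µM and Igfbp3 of 0.12 ± 0.046. Their unadjusted edgeR p-values were 0.0137 and 0.0220, their adjusted p was 0.656 for both, and 0 genes were called. At 10 µM Igfbp3 had 0.11 ± 0.046, with an unadjusted edgeR p of 0.0318. It was above the control of its number in 6 of 6 numbers at both doses. The share of all genes with this pattern was not computed. In number 1 the control, and in number 6 both uracil libraries, had over 5% of pairs unaligned. With the block, 1 of the 9 genes had an unadjusted p under 0.05 at 10 µM (161 of 13865 genes), 2 at 30 µM (937), 0 between the doses (588) and 2 for any difference (386). With the block and without the 3 libraries, the count was 0 at 10 µM (517 of 13888 genes) and 2 at 30 µM (604). It was 0 between the doses (672) and 1 for any difference (535). Libraries of the same number deviated together with a median r of 0.40 (-0.10 to 0.71, over 0.1 in 16 of 18 pairs), against -0.065 for different numbers, and 14 of 18 libraries correlated best with one of their own number. Both pairs under 0.1 hold control replicate 1. Without the 3 libraries 12 of 13 pairs were over 0.1, and 8 of 15 libraries correlated best with one of their own number. Of pairs with different numbers, 27 of 90 were over 0.1, and 23 of 62 without the 3 libraries. The dose tests were made without the block, as the study compared the doses as independent groups. The labels also tie no source to a number, and not every pair of the same number was over 0.1. None of this shows that the numbers are unrelated. Without the block, the SE of Igfbp3 at 30 µM was 0.44, against 0.046 with it.

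Leaving out 1 library at a time, the log2 fold changes ranged at 10 µM from -0.12 to 0.33 for Igfbp3, -0.14 to 0.15 for Igfbp4, -0.45 to 0.21 for Igfbp5, -0.042 to 0.15 for Igfbp6, -0.16 to 0.057 for Igfbp7, -0.19 to 0.015 for Igf1 and -0.32 to 0.12 for Igf1r. At 30 µM they ranged from -0.082 to 0.35 for Igfbp3, -0.014 to 0.29 for Igfbp4, -0.17 to 0.35 for Igfbp5, -0.075 to 0.13 for Igfbp7 and -0.30 to 0.21 for Igf1r. Without the 3 libraries the ratio of the highest to the lowest number was 7.17 for Igfbp3, 9.50 for Igfbp5 and 1.201 for Igf1r. With the longest transcript the levels were 39.3 for Igfbp2, 2.08 for Igf1 and 18.8 CPM per kb for Igf1r.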
